A study of Mus musculus with 16 samples.

Results

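The chemokines are the secreted proteins that direct leukocytes through tissue, and with their receptors they formed a set of 55 protein-coding genes in the longitudinal muscle and myenteric plexus (LMMP) of the mouse colon. Members were taken by gene symbol alone, as every protein-coding gene named as a numbered Ccl or Cxcl ligand, a numbered Ccr or Cxcr receptor, Cx3cl1, Xcl1, Xcr1 or Ackr1 to Ackr4, from the 56748 genes of the deposited table, 21970 of which were protein-coding. No measured value entered the choice. RNA was sequenced from LMMP of Ednrb-/- mice, a model of Hirschsprung disease (HSCR) in which the endothelin B receptor gene is disrupted and the distal colon lacks ganglia, and from Ednrb+/+ wild-type (WT) littermates. Both genotypes (the allele is Ednrb tm1Ywa) were bred from heterozygous parents on a hybrid C57BL6/J-129Sv background, animals of both sexes were used, and colons were taken at 2 to 4 weeks of age. Proximal colon, which the study describes as ganglionic, and distal colon each gave 4 libraries per genotype, 16 libraries in all. Segments were read from the sample titles, since the tissue entries of the labels name proximal colon for the distal libraries as well. No label ties a library to a named animal, so p-values measure the spread between these libraries. Some library names share a number between the proximal and distal colon of a genotype, so these libraries may come from the same animals. The main tests treated all libraries as independent.

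Ligands of the CC class attract mainly monocytes, macrophages, eosinophils and lymphocytes, those of the CXC class attract neutrophils or, where interferon induces them, activated T cells, and the ligands bind G protein-coupled receptors on the arriving cells. Cxcl12 and its receptor Cxcr4 act without inflammation, in development and in holding leukocytes in tissue, and the atypical receptors (Ackr genes) take up ligands without classical G protein signalling. In the gut wall, resident macrophages lie among the muscle layers and the myenteric plexus, and chemokines are known there for recruiting monocytes when tissue is injured or inflamed.

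Most members lay on a few chromosomes, only in part as gene clusters. Chromosome 11 held 14 members, chromosome 9 held 12, chromosome 5 held 11 and chromosome 1 held 7. Those on chromosome 1 were spread along it, from Cxcr2 to Ackr1. Ccl22, Cx3cl1 and Ccl17 lay close together on chromosome 8. Promoter windows of 300 bases around the transcript start were found for 40 of the 55 members in a RefSeq table of GRCm38.p6, giving 42 windows. The NF-kB consensus, the site of a transcription factor that many inflammatory stimuli activate, was found on either strand in 21.4% of these 42 windows and in 4.51% of all 32851 windows of the table. It lay in the windows of Ackr2, Ccl9, Ccl20, Ccr3, Ccr6, Cxcl1, Cxcl2, Cxcl3 and Cxcl10. The interferon-stimulated response element GAAANNGAAA was found in 7.14% of the members' windows and in 3.44% of all windows, and the TATA box letters TATAAA in 31.0% and 13.6%. A match describes the letters of the window and does not show that a factor bound there. The windows of 4 genes are shown because the results return to these genes: fractalkine, the inducible ligands Cxcl1 and Cxcl10, and the steady ligand Cxcl12. Each was matched once to GRCm39, the build of the counts, whose coordinates are given, and capitals mark a matched motif. In Cxcl1 the capitals cover overlapping matches of the NF-kB consensus on both strands, in Cxcl10 they mark the interferon element first and then a pair of NF-kB matches, in Cx3cl1 they mark the TATA letters, and Cxcl12 had no match of these motifs. The Cx3cl1 window is built around a RefSeq transcript start that lies 171 bases inside the annotated gene.
Cx3cl1, chr8:95498558-95498857, plus strand: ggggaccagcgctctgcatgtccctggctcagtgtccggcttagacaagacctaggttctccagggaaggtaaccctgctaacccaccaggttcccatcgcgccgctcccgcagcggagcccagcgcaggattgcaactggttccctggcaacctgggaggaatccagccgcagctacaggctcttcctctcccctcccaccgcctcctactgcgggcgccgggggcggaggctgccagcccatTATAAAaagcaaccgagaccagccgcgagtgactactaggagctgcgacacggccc
Cxcl1, chr5:91038854-91039153, plus strand: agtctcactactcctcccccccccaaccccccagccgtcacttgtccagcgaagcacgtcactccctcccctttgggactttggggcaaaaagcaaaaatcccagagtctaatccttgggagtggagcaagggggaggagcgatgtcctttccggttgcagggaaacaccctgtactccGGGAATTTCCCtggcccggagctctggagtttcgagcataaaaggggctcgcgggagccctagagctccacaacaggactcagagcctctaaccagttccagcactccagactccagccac
Cxcl10, chr5:92496699-92496998, minus strand: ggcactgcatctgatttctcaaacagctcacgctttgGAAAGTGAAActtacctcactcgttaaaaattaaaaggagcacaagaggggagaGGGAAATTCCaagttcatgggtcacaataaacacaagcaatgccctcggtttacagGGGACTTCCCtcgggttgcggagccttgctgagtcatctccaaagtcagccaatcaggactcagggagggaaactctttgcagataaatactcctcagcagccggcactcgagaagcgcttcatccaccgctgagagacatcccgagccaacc
Cxcl12, chr6:117145246-117145545, plus strand: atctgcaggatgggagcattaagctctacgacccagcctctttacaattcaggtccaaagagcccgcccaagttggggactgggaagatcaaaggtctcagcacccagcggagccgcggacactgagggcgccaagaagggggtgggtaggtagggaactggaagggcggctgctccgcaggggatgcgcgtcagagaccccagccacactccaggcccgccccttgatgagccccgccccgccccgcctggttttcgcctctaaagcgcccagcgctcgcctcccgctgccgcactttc

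Between 21384372 and 45831881 reads were counted per library, and mitochondrial genes took 4.32% to 49.8% of them. In the proximal colon this share was 49.8%, 17.8%, 7.31% and 34.6% in WT and 5.56%, 6.68%, 6.34% and 20.1% in HSCR libraries 1 to 4. Counts outside mitochondrial genes had a mean of 22125800 in WT proximal and 32660200 in HSCR proximal libraries. The lowest, 10728446, was in WT proximal 1. Levels are given as CPM, the count of a gene scaled to a fixed library total after TMM correction of that total. Ednrb, the disrupted gene, was at 33.9 to 67.7 CPM in WT proximal, 7.85 to 36.3 in HSCR proximal, 12.2 to 40.2 in WT distal and 5.55 to 97.0 in HSCR distal libraries, and its highest value, 97.0 CPM, was in the library labelled HSCR distal 1, which goes against that label. The summed level of 6 posterior Hox genes, which mark position along the gut, was 217 CPM in the library labelled HSCR proximal 1 against 53.4 to 128 CPM in the other proximal libraries, and it was 123 and 113 CPM in the libraries labelled HSCR distal 1 and 4 against 190 to 289 CPM in WT distal libraries. Epithelial markers, which should be scarce in stripped muscle, had their highest mean in HSCR proximal 2 (10 on the log2 scale, 10 genes), where the smooth muscle mean was 8.51, the lowest of all libraries. WT distal 1 had the highest macrophage mean (5.05 on the log2 scale, 10 genes) and the highest neutrophil mean (1.44, 6 genes). Enteric neuron markers, 10 genes, summed to 515 to 2833 CPM in WT proximal libraries and to 58.9, 109, 2590 and 1808 CPM in HSCR proximal libraries 1 to 4, so that the first and second were poor in neuronal transcripts. In the distal colon they summed to 75.8 CPM in WT distal 1 and to 296, 1993 and 1409 CPM in WT distal 2 to 4. The sum was 1096 CPM in the library labelled HSCR distal 1 and 7.03 to 69.3 CPM in HSCR distal 2 to 4. The library labelled HSCR distal 1 thus lay within the WT range, and WT distal 1 was poor in neuronal transcripts, close to HSCR distal 2 to 4. WT distal 1 also had the lowest Ednrb level of the WT libraries, at 12.2 CPM. By their fitted means 9 of 10 neuron markers and 4 of 5 glia markers were lower in HSCR in the proximal colon, and their part in the members' levels was not tested. Values without the libraries that stand apart are given beside the results that moved most on leaving them out.

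Of the 55 members, 34 had more than 10 counts in at least 4 libraries, which is 61.8% against 70% of all protein-coding genes, and 24 reached 1 CPM in at least 4 libraries. Ccl26 and Cxcr1 had no count in any library. All 4 atypical receptors passed the count rule, as did 9 of 12 CC ligands for monocytes, macrophages and eosinophils, 3 of 7 CC ligands for lymphocytes and dendritic cells, 3 of 5 neutrophil-attracting CXC ligands, 2 of 3 interferon-induced ligands and 4 of 5 constitutive CXC ligands. Among receptors, 5 of 10 Ccr genes and 3 of 7 Cxcr and Xcr genes passed, and Cxcr2, the receptor of the neutrophil-attracting ligands, had 21 counts, all in WT distal 1. The 21 members that did not pass were Ccl1, Ccl3, Ccl4, Ccl17, Ccl19, Ccl20, Ccl26, Cxcl3, Cxcl11, Cxcl15, Cxcl17, Xcl1, Ccr3, Ccr4, Ccr6, Ccr8, Ccr9, Cxcr1, Cxcr2, Cxcr3 and Cxcr5, with totals over the 16 libraries of 0 to 203 counts. Of the 203 counts of Ccl20, an epithelial ligand of Ccr6, 110 were in HSCR proximal 2. Per gene length, the highest means over the 16 libraries were those of Cxcl14 (19.1 FPKM), a constitutive ligand of epithelium and stroma, Ccl6 (18.4), a macrophage-derived ligand of Ccr1, Cxcl12 (9.64), Ccl11 (9.35), the eosinophil attractant eotaxin, and Ackr4 (6.86), a scavenger of lymphoid CC ligands. Ackr3 (4.02), the scavenger of Cxcl12, Ackr1 (3.86), which carries chemokines across venules, Ccl9 (3.45), Cxcl16 (3.45), Cx3cl1 (3.23), Ccl12 (3.05) and Ccl8 (2.62) completed the 12 highest. No signalling receptor was among these 12, and the highest of them was Cxcr4, at 2.40 FPKM.

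**Figure D1:**
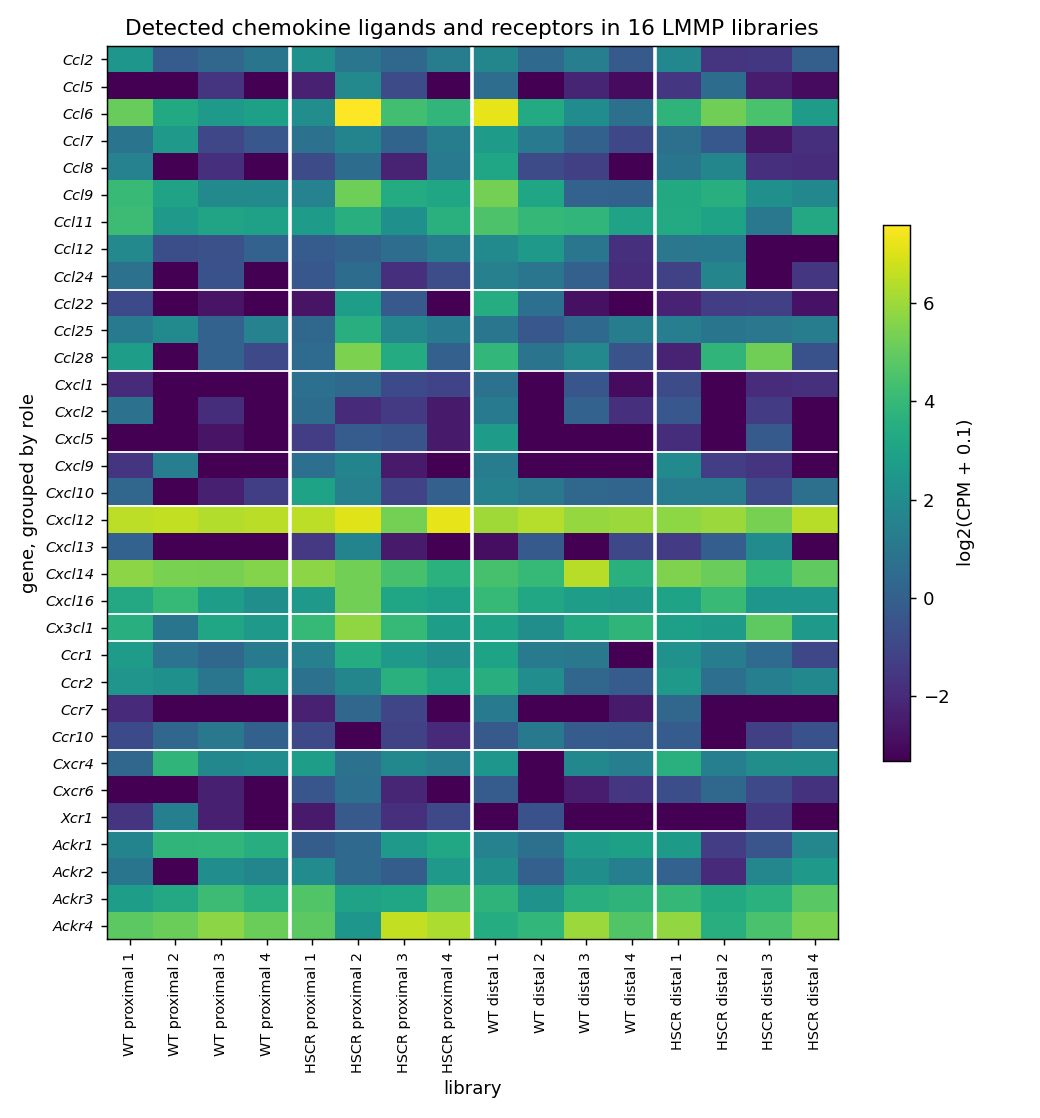
Each column is 1 of the 16 libraries and each row a detected member, ordered by role and with 1 member not shown, with colour giving log2(CPM + 0.1). Cxcl12 is bright across all columns, whereas Ccl6 and Ccl9 are brightest in HSCR proximal 2 and WT distal 1 and the neutrophil-attracting ligands are dark in most columns.

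The members varied more between libraries of the same group than most genes did. The within-group SD of log2 CPM had a median of 1.42 over the 34 detected members and of 0.83 over 18619 genes, and 31 of the 34 lay above the latter. The genes were not matched to the members in level, and sparse counts widen this SD. The part of level in this difference was not tested. Cxcl12 was the steadiest detected member, with an SD of 0.51 and a ratio of 3.77 between its highest and lowest library. The same ratio was 5.92 for Ackr3, 7.19 for Cxcl14, 11.8 for Ccl11 and 127 for Ccl6. Of the 34 detected members, 10 had their highest level in WT distal 1 and 8 in HSCR proximal 2, and the number of members with more than 10 counts was 38 and 40 in these libraries against 20 to 31 in the others. In these whole-tissue libraries, more cells of a type and more RNA per cell cannot be told apart.

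**Figure D2:**
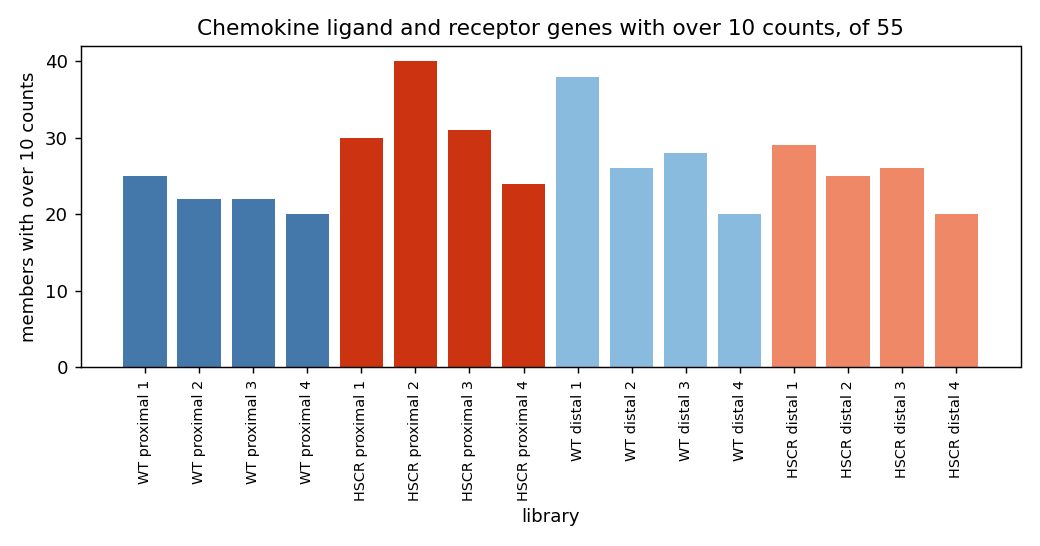
Bars give the number of the 55 members with more than 10 counts in each library, coloured by genotype and segment. HSCR proximal 2 (40) and WT distal 1 (38) stand above the other 14 libraries, which range from 20 to 31.

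The first question was whether the chemokine system differed between HSCR and WT in the proximal colon. None of the 24 members that could be tested passed an adjusted p of 0.05 in the quasi-likelihood test of edgeR, adjusted after Benjamini and Hochberg, and neither did any of the 16664 genes tested (0%). At an unadjusted p of 0.05 there was 1 member, Cx3cl1, against 6.62% of all genes, and DESeq2 and limma-voom gave 0 members at an adjusted p and 5 and 4 at an unadjusted p, against 10.1% and 17.7% of all genes. RUVr, which removes estimated unwanted variation and is the procedure the study names, called 7 of the 24 members with 4 factors, against 21% of all genes. By direction, 18 of 24 members were higher in HSCR than in WT, and the median log2 change of the 24 was 0.44 beside 0.04 over all genes, of which 53.2% were higher. The CC ligands for monocytes, macrophages and eosinophils were higher in 6 of 8 tested, the Ccr genes in 3 of 4 and the atypical receptors in 3 of 4. Without the library labelled HSCR proximal 1 the split was 17 higher and 8 lower, and without HSCR proximal 2 it was 15 higher and 11 lower of 26, with a median of 0.19, and the part of that library's tissue composition in the members' levels was not tested.

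Cx3cl1 encodes fractalkine, the membrane-bound ligand that epithelium, endothelium and neurons display to Cx3cr1-bearing macrophages and monocytes. Its level was 11.6, 1.81, 8.80 and 5.83 CPM in WT proximal libraries 1 to 4, and 16, 55, 15.8 and 6.87 CPM in HSCR proximal libraries 1 to 4. The means were 7.01 ± 4.19 CPM (SD, n = 4) and 23.4 ± 21.5 CPM (SD, n = 4). Among the HSCR libraries, 3 lay above all WT libraries, and HSCR proximal 4 lay within the WT range. The log2 fold change was 1.70 ± 0.72 (SE), with an adjusted p of 0.747 in edgeR's quasi-likelihood test, and an exact two-sided permutation test of the log2 levels gave p = 0.0857, where 4 against 4 libraries can reach 0.0286. Without HSCR proximal 2 the log2 fold change was 0.87, and without the libraries labelled HSCR proximal 1 and 2 it was 0.69. Libraries 1 and 2 of each group share a pattern of names, whereas libraries 3 and 4 carry the prefix CM or LC. These prefixes are spread unevenly, as CM names occur in the proximal groups only. Taken as 2 series, libraries 1 and 2 gave a difference of mean log2 levels of 2.66 and libraries 3 and 4 of 0.53. Cx3cr1, the fractalkine receptor, which lies outside the naming rule and was chosen after its values were seen, differed by 0.44 ± 0.49 (SE) on the log2 scale, with an adjusted p of 0.864 in edgeR's test.

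The neutrophil-attracting ligands Cxcl1 and Cxcl5 were sparse in WT proximal colon and had more counts in HSCR, and the interferon-induced Cxcl10 had a higher mean in HSCR with overlapping groups. This did not hold for every ligand of these classes, as the neutrophil attractant Cxcl2, chosen after its values were seen, had nearly equal means of 0.437 CPM (WT) and 0.456 CPM (HSCR). Cxcl10, which interferon induces and which attracts Cxcr3-bearing T cells, was at 1.13, 0, 0.0949 and 0.302 CPM in WT libraries and at 8.05, 2.63, 0.368 and 0.931 CPM in HSCR libraries. The groups overlapped, the log2 fold change was 3.01 ± 1.43 (SE) with an adjusted p of 0.75 in edgeR's test, and without the libraries labelled HSCR proximal 1 and 2 it was 0.81. Cxcl10 was chosen for description after its values were seen, and it overlaps Art3 on the opposite strand, so reads of both could be mixed if strand was not used. Within libraries 1 and 2 and within libraries 3 and 4 its difference of mean log2 levels was 3.75 and 1.31. Its promoter window, shown above, is the only one of the 4 printed with both the interferon and the NF-kB letters. Cxcl1, a neutrophil attractant acting on Cxcr2, had 2 counts in the 4 WT proximal libraries together and 127 in the 4 HSCR libraries, at 0.151, 0, 0, 0 CPM and 1.47, 1.24, 0.441, 0.358 CPM. Every HSCR library lay above every WT library, and the ratio of the summed counts at equal depth was 44.8, with an exact 95% interval of 12.2 to 374 that covers counting error only. Cxcl5, a second Cxcr2 ligand, was at 0, 0, 0.0475 and 0 CPM in WT and at 0.300, 0.804, 0.606 and 0.0716 CPM in HSCR. It had 2 counts in WT and 69 in HSCR, a ratio of 24.4 with an interval of 6.49 to 205. Both were too sparse in this segment for the filter of the test. Without a filter, edgeR's test gave Cxcl1 a log2 fold change of 4.73 ± 1.77 (SE) and an adjusted p of 0.543.

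Over the 52 members with a count in these 8 libraries, 5 did not overlap between the genotypes, or 9.62%, where 3.4% of all genes with a count did not. Among genes that passed the filter of the test, 1 of 24 members did not overlap, beside 339 higher and 471 lower of 16664 genes. The other members that did not overlap were too sparse for that filter. Ccl3, Ccl4, Cxcl1 and Cxcl5 were higher in HSCR in every library, and Ccr10 was lower. For Cxcl5 the lowest HSCR library, HSCR proximal 4, and the highest WT library, WT proximal 3, held 2 counts each. Its lack of overlap thus rests on library size alone. The groups of Ccr10 overlapped when CPM was taken over the raw library total. Ccl3 and Ccl4, the macrophage inflammatory proteins, were near the detection limit. WT proximal libraries held fewer counts outside mitochondrial genes on average than HSCR proximal libraries, so counts of 0 were more likely in WT. Ccl4 had 38 counts in HSCR and 0 in WT, a ratio of at least 8.94 against a floor of 3 counts over the group. Ccr10, the receptor of the epithelial ligands Ccl27 and Ccl28, was at 0.452, 1.11, 1.99 and 0.95 CPM in WT and at 0.425, 0, 0.331 and 0.143 CPM in HSCR, a log2 difference of -2.32 ± 1.10 (SE) with an adjusted p of 0.75 in edgeR's test. Ccr10 overlaps Cntnap1 on the opposite strand, and whether the counting used strand was not given in the sources used here. Ccl3, Ccl4 and Ccr10 were chosen for description after their values were seen. The neutrophil marker list, with 6 genes, had a summed level of 0 to 3.62 CPM in WT and 1.17 to 12.3 CPM in HSCR proximal libraries, and the epithelial list 21.4 to 3556 CPM and 203 to 15127 CPM, and their part in these differences was not tested.

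**Figure D3:**
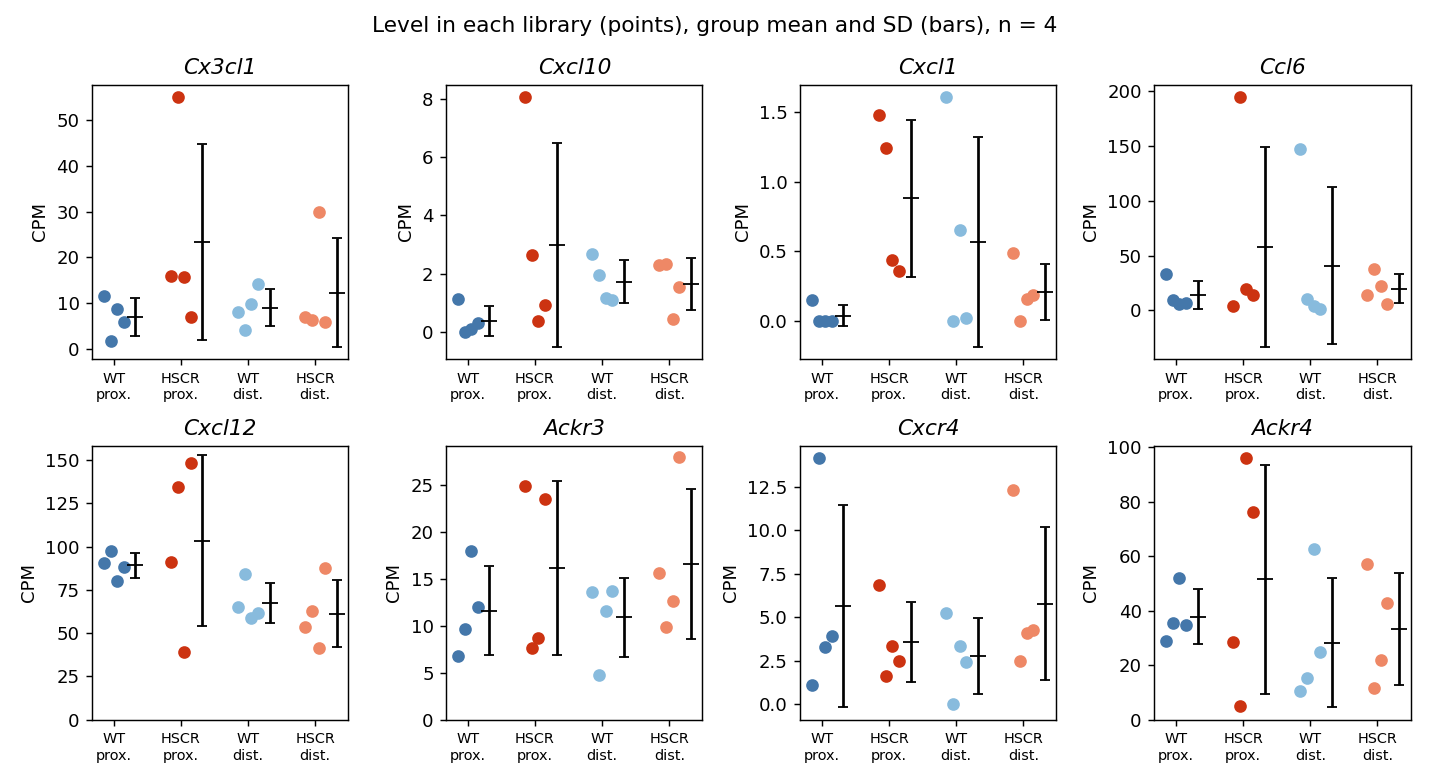
Points give the CPM of 8 members in each library, and bars beside each group give its mean and SD (n = 4). Cxcl12 varies least, Ccl6 is set apart by HSCR proximal 2 and WT distal 1, and Cxcl1 is near 0 in WT proximal libraries but not in HSCR proximal libraries.

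The abundant macrophage ligands followed single libraries. Ccl6 was at 32.9, 9.80, 5.72 and 7.08 CPM in WT proximal and at 4.05, 195, 19.6 and 14.3 CPM in HSCR proximal libraries. The log2 fold change of 2.03 ± 1.12 (SE; adjusted p = 0.762 in edgeR's test) rested on HSCR proximal 2, and without it the value was -0.12. Ccl9, a close relative of Ccl6, was at 16.1, 7.78, 3.65 and 3.63 CPM in WT and at 2.75, 36.9, 10.5 and 8.52 CPM in HSCR, again highest in that library, with a log2 difference of 0.89 ± 0.79 (SE) that was -0.10 without it. Ccl11 was at 17.6, 5.68, 8.30 and 7.47 CPM in WT and at 6.37, 11.7, 4.43 and 12.2 CPM in HSCR, a log2 difference of -0.19 ± 0.49 (SE). The groups lay over each other, and the eosinophil markers, 5 genes, summed to at most 3.81 CPM in any library. Ccl8, a monocyte attractant of the Ccl2 cluster, was at 2.79, 0, 0.190 and 0 CPM in WT and at 0.475, 1.35, 0.110 and 2.11 CPM in HSCR, a log2 difference of 0.48 ± 1.66 (SE). Ccl12, from the same cluster, was at 3.47, 0.516, 0.546 and 0.994 CPM in WT and at 0.800, 1.02, 1.41 and 2.33 CPM in HSCR, a log2 difference of 0.02 ± 0.81 (SE). Near-identical stretches among these clustered paralogs could split reads, so single values of Ccl2, Ccl12, Ccl6, Ccl9 and the Cxcl1 to Cxcl3 group are uncertain. The macrophage markers themselves had a summed level of 96.9 to 353 CPM in WT and 130 to 268 CPM in HSCR proximal libraries.

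Cxcl12, the steadiest ligand, did not separate the genotypes, nor did its receptors. Cxcl12 was at 90.5, 97.3, 80.2 and 88.5 CPM in WT proximal and at 91.4, 135, 39.4 and 148 CPM in HSCR proximal libraries, so the HSCR libraries lay on both sides of the WT range. The log2 fold change was 0.19 ± 0.38 (SE; adjusted p = 0.931 in edgeR's test). Cxcr4, its signalling receptor, was at 1.13, 14.2, 3.30 and 3.93 CPM in WT and at 6.85, 1.61, 3.34 and 2.47 CPM in HSCR, a log2 difference of -0.68 ± 0.80 (SE). Ackr3 was at 6.78, 9.66, 17.9 and 12 CPM in WT and at 24.8, 7.68, 8.71 and 23.5 CPM in HSCR, a log2 difference of 0.45 ± 0.51 (SE). In both receptors the HSCR libraries overlapped the WT libraries. Cxcl14 was at 52.3, 42.8, 41.0 and 47.7 CPM in WT and at 51.7, 38.3, 21.6 and 12.4 CPM in HSCR, so that 3 HSCR libraries lay below the WT range, with a log2 difference of -0.60 ± 0.41 (SE; adjusted p = 0.791 in edgeR's test), or -1.44 without the libraries labelled HSCR proximal 1 and 2. Cxcl16, the transmembrane ligand of Cxcr6, was at 9.49, 16.1, 6.81 and 4.23 CPM in WT and at 5.72, 38.2, 8.40 and 7.16 CPM in HSCR, a log2 difference of 0.66 ± 0.68 (SE) that was -0.37 without HSCR proximal 2, and it overlaps Zmynd15 on the opposite strand.

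Of the remaining atypical receptors, Ackr1 was at 2.94, 14.2, 14.7 and 11.1 CPM in WT proximal and 0.825, 1.24, 5.75 and 9.34 CPM in HSCR proximal libraries. Its groups overlapped through WT proximal 1, and the log2 difference was -1.34 ± 0.84 (SE; adjusted p = 0.778 in edgeR's test). Ackr1 overlaps Cadm3 on the same strand, so its reads may be counted in part elsewhere. Ackr4 was at 28.9, 35.6, 52.2 and 34.9 CPM in WT and at 28.5, 5.23, 96.0 and 76.4 CPM in HSCR libraries, a log2 difference of 0.42 ± 0.71 (SE), and its lowest level was in HSCR proximal 2, without which the difference was 0.81. Ackr4 and Ccl6 overlap other genes on the opposite strand as well.

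Of the detected members not described so far, 9 were tested in the proximal colon, and their log2 differences ran from -0.15 ± 0.87 (SE) for Ccl7 to 2.80 ± 1.64 (SE) for Ccl28, the epithelial ligand of Ccr10. Without HSCR proximal 2, which had the highest epithelial markers, the value of Ccl28 was 1.09. The monocyte and macrophage receptors Ccr1 and Ccr2 were higher in HSCR by 1.00 ± 0.69 and 0.52 ± 0.68 (SE), each within 2 standard errors of 0, and without HSCR proximal 2 by 0.54 and 0.74. Ccl7, Ccl28, Ccr1 and Ccr2 were chosen for description after their values were seen, as were Ccl20 and Cxcr2 above. Ccl5, Cxcl2, Cxcl9, Cxcl13, Ccr7, Cxcr6 and Xcr1 were too sparse to be tested in that segment.

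The same comparison in the distal colon gave no member at an adjusted or unadjusted p of 0.05 among 27 tested, against 0% and 2.64% of 17059 genes. DESeq2 and limma-voom also gave 0 at an adjusted p, with 1 and 2 members at an unadjusted p, against 4.96% and 7.94% of all genes, and RUVr called 2 against 9.51%, Ccl12, lower in HSCR, and Ccl6, higher in HSCR (0.80 on the log2 scale) where edgeR's test gave the opposite sign. The direction ran the other way from the proximal colon, as 8 members were higher and 19 lower in HSCR and their median log2 change was -0.42 beside 0.04 over all genes. All 8 tested CC ligands for monocytes, macrophages and eosinophils and all 4 tested Ccr genes were lower in HSCR by their means. This direction rested on WT distal 1: without it, 14 members were higher and 14 lower, with a median of 0.06, and without it and the library labelled HSCR distal 1 the counts were 13 and 13. Without the library labelled HSCR distal 1 alone, 7 members were higher and 21 lower, with a median of -0.64. The macrophage markers summed to 486 CPM in WT distal 1 and to at most 264 CPM in HSCR distal libraries, and their part in this direction was not tested. None of 52 members with a count failed to overlap between genotypes, against 1.26% of all such genes.

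Ccl6 in the distal colon was at 148, 10.2, 3.93 and 1.53 CPM in WT libraries and, in the library labelled HSCR distal 1 and HSCR distal 2 to 4, at 13.8, 37.6, 22.0 and 6.20 CPM. A single WT library lay above all HSCR libraries, and the log2 fold change was -1.03 ± 1.25 (SE), which was 1.90 without WT distal 1. Ccl22, a ligand of Ccr4 made by dendritic cells, was at 10.8, 1.5, 0.0395 and 0 CPM in WT and 0.114, 0.298, 0.324 and 0.0461 CPM in HSCR. Its log2 fold change was -3.97 ± 1.86 (SE; adjusted p = 1 in edgeR's test), and -1.40 without WT distal 1. Ccl11 was at 23.2, 15.3, 14.5 and 7.70 CPM in WT and at 10, 8.09, 1.97 and 9.70 CPM in HSCR, a log2 difference of -1.03 ± 0.56 (SE). Only WT distal 4 lay within the HSCR range, and Ccl11 remained lower in HSCR in every alternative, from -1.57 to -0.71. Ackr3 was at 13.6, 4.73, 11.6 and 13.7 CPM in WT and at 15.6, 9.91, 12.7 and 28.0 CPM in HSCR, a log2 difference of 0.58 ± 0.46 (SE). Cxcl12 differed by -0.15 ± 0.28 (SE), with 58.7 to 84.3 CPM in WT and 41.4 to 87.4 CPM in HSCR, and Cx3cl1 by 0.40 ± 0.63 (SE), with 30.1 CPM in HSCR distal 3 above the 4.10 to 14.1 CPM of WT. HSCR distal 3 had the highest mean of epithelial markers among the distal libraries (8.39 on the log2 scale). The part of epithelium in its Cx3cl1 level was not tested.

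The other members named by level or by test showed no separation in the distal colon. Ccl9 was at 40.0, 8.65, 0.969 and 0.963 CPM in WT and at 9.95, 11.4, 4.37 and 3.34 CPM in HSCR, so that WT held both the highest and the lowest libraries. Ccl8 was highest in WT distal 1, at 8.42 CPM, beside 0.161 to 3.13 CPM in HSCR, and Ccl12 was at 0.188 to 5.97 CPM in WT and 0 to 2.01 CPM in HSCR. The log2 differences of these ligands were -0.79 ± 1.10, -0.78 ± 1.66 and -1.53 ± 1.66 (SE), and without WT distal 1 they were 1.03, 2.31 and -1.44. Cxcl1 was at 1.6, 0, 0.653 and 0.0235 CPM in WT and at 0.486, 0, 0.162 and 0.184 CPM in HSCR, without the separation of the proximal colon. Cxcl14 was highest in WT distal 3, at 87.1 CPM, against 12.1 to 21.2 CPM in the other WT and 14.8 to 44.8 CPM in the HSCR libraries, and Cxcl16 differed by -0.10 ± 0.52 (SE) on the log2 scale, or by 0.24 without WT distal 1. Cxcr4 was at 5.24, 0, 3.34 and 2.44 CPM in WT and at 12.3, 2.5, 4.10 and 4.24 CPM in HSCR, a log2 difference of 1.05 ± 1.19 (SE) that was 0.35 without the library labelled HSCR distal 1. Ackr1 differed by -0.83 ± 0.95 (SE) and Ackr4 by 0.20 ± 0.66 (SE), with overlapping groups in both, and without the library labelled HSCR distal 1 the values were -1.74 and -0.21.

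**Figure D4:**
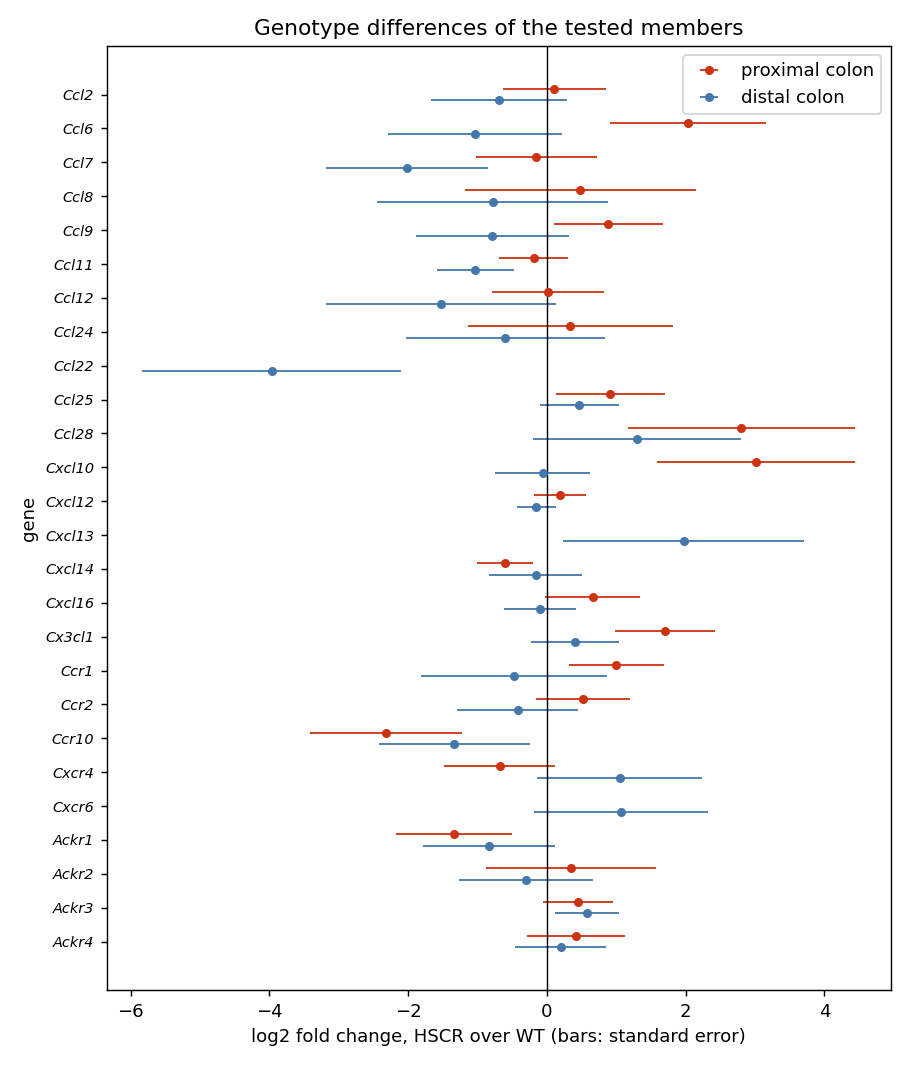
Points give the log2 fold change of HSCR over WT for the tested members, with 1 not shown, in the proximal (red) and distal (blue) colon, and bars give the standard error. The bars are wide for the inducible ligands and narrow for Cxcl12 and Ackr3, and no member passed an adjusted p of 0.05 in either segment.

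Between the segments of WT mice, no member passed an adjusted p of 0.05 among 24 tested, against 0.0181% of 16566 genes, and none passed an unadjusted p of 0.05, against 5.23%. DESeq2 and limma-voom gave 0 at an adjusted p, with 0 and 2 members at an unadjusted p, against 6.91% and 11.1% of all genes, and RUVr called 7, against 19.7%. Distal levels were higher for 15 members and lower for 9, with a median log2 difference of 0.20 (distal over proximal) beside 0.03 over all genes. Without WT distal 1 the counts were 9 and 16, with a median of -0.22. None of the 49 members with a count failed to overlap between segments, against 2.79% of all genes. Cxcl12 had a lower mean in distal than in proximal WT colon, at 58.7 to 84.3 CPM against 80.2 to 97.3 CPM, and its groups overlapped through WT distal 2 alone. The log2 difference was -0.37 ± 0.20 (SE; adjusted p = 0.906 in edgeR's test). Cxcl10 was at 1.08 to 2.67 CPM in WT distal libraries and at 0 to 1.13 CPM in WT proximal libraries, a log2 difference of 2.25 ± 1.26 (SE; adjusted p = 0.906 in edgeR's test), with an overlap through WT proximal 1.

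Between the segments of HSCR mice, no member passed among 30 tested, at an adjusted p (0% of 17086 genes) or an unadjusted p of 0.05 (1.49%). DESeq2 and limma-voom gave 0 at an adjusted p, with 1 and 4 members at an unadjusted p, against 2.82% and 7.9% of all genes, and RUVr called 1, Ccl12, against 2.01%. Distal levels were lower for 22 members and higher for 8, with a median log2 difference of -0.74 beside -0.04. Without the libraries labelled HSCR proximal 1 and 2, 17 of 35 were lower and 18 higher, with a median of 0.06. Without the library labelled HSCR proximal 1 alone, 22 of 32 were lower, with a median of -0.80. Without HSCR proximal 2 alone, 20 of 31 were lower, with a median of -0.24. Leaving out the library labelled HSCR distal 1 gave 25 of 32 lower, with a median of -1.03. Of 52 members with a count, Ccl3 and Cxcr3 did not overlap and were lower in distal colon, against 1.03% of all genes. Ccl3 and Cxcr3 were chosen for description after their values were seen. Cxcr3, the receptor of Cxcl9 and Cxcl10 on activated T cells, had 67 counts in HSCR proximal and 3 in HSCR distal libraries, a ratio of 21.2 with an exact 95% counting interval of 6.96 to 105. Of the 67 counts 47 were in HSCR proximal 2, and without it the ratio was 7.75, with an interval of 2.30 to 40.7. T and NK cell markers, 9 genes, had a summed level of 2.33 to 17.8 CPM in HSCR proximal and 2.19 to 6.15 CPM in HSCR distal libraries. Cxcl12 was at 61.3 ± 19.5 CPM in HSCR distal and 103 ± 49.2 CPM in HSCR proximal libraries (SD, n = 4), a log2 difference of -0.76 ± 0.43 (SE).

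Whether the genotype difference itself differed between segments was tested over all 16 libraries. No member passed an adjusted p of 0.05 among 34 tested, against 0% of 18619 genes, and 3 passed an unadjusted p of 0.05, against 1.44% of all genes. DESeq2 and limma-voom gave 0 at an adjusted p and 4 each at an unadjusted p, against 2.05% and 2.93% of all genes, and RUVr called 3, Ccl12, Cxcl5 and Cxcl2, against 1.56%. The members at an unadjusted p of 0.05 in edgeR's test were Ccl22, Cxcl1 and Cxcl5, each with a smaller HSCR over WT ratio in the distal than in the proximal colon. Each was too sparse for the filter in the proximal genotype comparison and passed it over all 16 libraries through libraries where it was higher. WT proximal libraries together held 8, 2 and 2 counts of them. The count of 3 beside the share of all genes is therefore no support for a difference. The differences on the log2 scale were -7.99 ± 3.03, -6.23 ± 2.44 and -7.28 ± 3.19 (SE), with an adjusted p of 1 for each in edgeR's test. Cxcl5 was at 6.21 CPM in WT distal 1 and had no count in the other WT distal libraries, and without WT distal 1 its difference was 1.46 with the opposite sign. Ccl22 was at 6.58 CPM in HSCR proximal 2 and 10.8 CPM in WT distal 1, and its difference was -2.58 without both libraries. Cxcl1 had the same direction without both, at -4.71. Over all members, 27 differences were negative and 7 positive, with a median of -1.13 beside -0.05 over all genes, and without HSCR proximal 2 and WT distal 1, 15 were negative and 19 positive, with a median of 0.05. Without HSCR proximal 2 alone, 24 were negative and 12 positive, and without WT distal 1 alone, 25 and 12. Leaving out the library labelled HSCR distal 1 gave 32 negative and 7 positive, with a median of -1.94.

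Genes that act with the chemokines were described from fixed lists. Of 17 further chemokine system genes, such as Cx3cr1, Pf4 and Mif, 13 were tested in each segment and none passed an unadjusted p of 0.05 for genotype, and the median log2 change was -0.02 proximally and -0.05 distally. Of 29 inflammatory cytokines and their early targets, 21 were tested in the proximal colon. HSCR levels exceeded WT levels for 16 and lay under them for 5, and the median log2 change was 0.78. Without HSCR proximal 2 the split was 14 and 7 with a median of 0.28, and without the libraries labelled HSCR proximal 1 and 2 it was 14 and 9 with a median of 0.05. None passed an adjusted p of 0.05, and 2 passed an unadjusted p. Vcam1, the endothelial adhesion molecule that binds arriving leukocytes, was at 23.3, 19.0, 35.2 and 31.0 CPM in WT and at 12.7, 7.79, 6.21 and 12.1 CPM in HSCR proximal libraries, with every HSCR library below every WT library. Its log2 fold change was -1.51 ± 0.35 (SE; adjusted p = 0.601 in edgeR's test). Socs3, a feedback inhibitor of cytokine signalling, was at 48.5, 4.68, 20 and 7.95 CPM in WT and at 238, 19.5, 45.3 and 53.8 CPM in HSCR, with overlapping groups and a log2 fold change of 2.13 ± 0.92 (SE; adjusted p = 0.747 in edgeR's test), which was 0.96 without the library labelled HSCR proximal 1. In the distal colon 22 of the 29 were tested, 10 higher and 12 lower, with a median of -0.07 and none at an unadjusted p of 0.05, and without WT distal 1 the split was 14 and 8 with a median of 0.36.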

How the data were processed

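The authors aligned the reads with HISAT2 2.2.1 to mm39 (GRCm39) and counted them per gene with featureCounts 2.0.6, as the submitters' processing notes list. The deposited counts are whole numbers without normalization, and the deposited FPKM values were scaled by the authors to gene length and library total. The authors' fold changes and p-values in the same table hold their own comparisons and were not used. Libraries were grouped by genotype and segment in the titles. Counts were scaled by TMM over all 16 libraries for CPM, and log2 levels used log2(CPM + 0.1). Genes passing filterByExpr were tested with edgeR 4.0.16 (quasi-likelihood, Benjamini-Hochberg) in R 4.3.3, within the 8 libraries of a comparison, and in 1 model of all 16 for the difference between segments. The study's methods name edgeR with RUVr, and RUVr with 4 factors was run as an alternative beside DESeq2 1.42.0 and limma 3.58.1. The scripts were tested on simulated data. Sparse ratios used exact 95% intervals on summed counts, with a floor of 3 counts. Depth ranged from 21384372 to 45831881 counts, and 3 counts corresponded to 0.0551 to 0.226 CPM.

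The genes named by rule were members at an unadjusted p of 0.05 in any comparison, the 12 of highest mean FPKM, and Cxcl12, Cxcr4 and Ackr3. Related genes were named at an unadjusted p of 0.05 for genotype. Genes outside these rules that are named with values were chosen after their values were seen, as the text says beside them. The members, lists and tests were chosen with earlier results of these data known. No libraries held identical counts. The values of 1 member are not reported here, and it is counted among the members.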

Additional observations from a re-analysis of the deposited data

Results flagged for a closer look

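Within groups of 4 libraries, Dixon's test on log2(CPM + 0.1) set a single library apart in 6 of the 64 group values of the 16 named members. Chance sets apart about 1 in 20 where values are not tied. In the Cxcl1 and Cxcl5 cases below the other libraries were tied at 0 counts. The test then flags any count at all, so the 6 cannot be set against that rate. Ccl11 was at 1.97 CPM in HSCR distal 3 and at 8.09 to 10 CPM in the other HSCR distal libraries. Cx3cl1 was at 30.1 CPM in HSCR distal 3 and at 5.92 to 7.01 CPM in the rest of its group. Only HSCR proximal 2 had a higher mean of epithelial markers than HSCR distal 3 (8.39 on the log2 scale), and their part was not tested. Ackr3 was at 4.73 CPM in WT distal 2 and at 11.6 to 13.7 CPM in the rest. Cxcl5 was at 6.21 CPM in WT distal 1, with no count in the other 3. The remaining cases rest on 2 counts each: Cxcl1 at 0.151 CPM in WT proximal 1 and Cxcl5 at 0.0475 CPM in WT proximal 3, with no count in the other libraries of the group.

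The genotype difference differed between segments at an unadjusted p of 0.05 for Ccl22 (-7.99 on the log2 scale, distal minus proximal), Cxcl1 (-6.23) and Cxcl5 (-7.28), and each had an adjusted p of 1 in edgeR's test over 18619 genes. All were nearly absent from WT proximal libraries and passed the filter through libraries where they were higher.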

How the results depend on the processing

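Every alternative other than RUVr left 0 members at an adjusted p of 0.05 in all 5 comparisons: DESeq2, the likelihood ratio test, limma-voom, upper quartile scaling, other filters, 16 libraries in 1 fit, the library series or replicate number as a term, and leaving out libraries. RUVr with 4 factors and the likelihood ratio test called 7 members in the proximal and 2 in the distal genotype comparison, 7 between segments in WT, 1 in HSCR and 3 for the difference between segments, and it called 3496, 1622, 3269, 344 and 290 genes of all those tested. The 7 proximal members were Ccl6, Ccl28, Cxcl10 and Cx3cl1 (higher in HSCR) and Cxcl14, Ackr1 and Ccr10 (lower), or 7 of 24 beside 21% of all genes. The cause was not tested. DESeq2 called 190 genes in the proximal comparison, none a member, with 5 members at an unadjusted p of 0.05.

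Of members not overlapping between proximal genotypes, 5 to 8 were counted on leaving out each library (all genes: 4.57% to 8.66%), 8 of 52 without WT proximal 1 (8.66%), and 9 of 47 were counted without the libraries labelled HSCR proximal 1 and 2 (12.7%), an alternative chosen after seeing the data, where fewer libraries make an overlap less likely. With CPM over the raw library total the count was 4, as Ccr10 then overlapped. It had 6 counts of 21384372 in WT proximal 1 and 17 of 39193609 in the library labelled HSCR proximal 1. Directions turned in 4 of 392 gene values recomputed under every alternative: Ccl6 in the proximal colon ranged from -0.12 (without HSCR proximal 2) to 2.88 on leaving out each library, Ccl22 in the distal colon was 1.07 by limma-voom, and the difference between segments of Cxcl5 ranged from -9.65 to 1.46 (without WT distal 1) and was 1.93 without HSCR proximal 2 and WT distal 1. Leaving out HSCR proximal 2 also turned Ccl9 and Cxcl16 in the proximal colon, and leaving out WT distal 1 turned Ccl6, Ccl8, Ccl9 and Cxcl16 in the distal colon, as alternatives chosen after seeing the data.

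Replicate numbers are shared between groups in the labels. In their deviations from the group means, same-number libraries correlated between -0.25 and 0.51 across genotypes, where 1 animal cannot give both libraries. Across segments, where it could, the correlations were all positive, between 0.04 and 0.55. No comparison had every pair above 0.1, and the numbers were not taken as a pairing. Some library names also share a number between proximal and distal colon. These correlations cannot show whether such libraries came from the same animal, because no label names the animals. With the replicate block, 0 members passed an adjusted p in any comparison, 1, 1, 0, 3 and 5 passed an unadjusted p of 0.05 in the proximal, distal, WT, HSCR and between-segment comparisons, against 6.76%, 4.29%, 8.44%, 1.7% and 1.32% of all genes, and Cx3cl1 in the proximal colon was at 1.34.

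At the depth of these libraries, 21 members stayed at or under 10 counts in all but 3 libraries, so most differences of those genes were not detectable. The Ccl3, Ccl4, Cxcl1 and Cxcl5 contrasts rest on 0 to 127 counts per group.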
